A study of Mus musculus with 5 samples.

Results

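The epidermal growth factor (EGF) receptor family and its ligands were examined in bulk RNA sequencing of mouse colon spheroids, which are three-dimensional cultures of colon epithelium. The genes were taken by symbol from the count and abundance tables: the receptors Egfr, Erbb2 and Erbb3, the ligands Areg, Ereg, Epgn, Hbegf, Tgfa and Btc, and the intracellular inhibitor Errfi1. All 10 were found among 32793 gene rows, and 9 of them had enough counts to be among the 13501 genes tested. Epgn did not. The cultures came from mice with dimerization-deficient alleles of both Notch1 and Notch2 (Notch1DD and Notch2DD, NDD here, 2 libraries) or with wild-type alleles (WT, 3 libraries), all on a mixed strain background that was mostly C57Bl6 and partly FVB. Per the series title, the study concerns the part of Notch dimerization in keeping the intestine in balance. The age of the mice, the culture medium (and whether it held EGF) and whether each library is a separate animal are not given in the sources used here, so p-values measure the spread between these libraries, which may be technical.

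In the intestine, EGF family ligands are made as membrane-bound precursors that proteases release. A released ligand joins receptor chains into dimers, which switch on the RAS-ERK and PI3K-AKT cascades and so promote growth, survival and repair of the epithelium. ERBB2 has no known ligand of its own and ERBB3 has little kinase activity, so both act mainly as partners, and ERRFI1 binds and blocks the active kinases as a feedback brake. Notch receptors act through RBPJ, a DNA-binding protein, and the NDD alleles remove the contact by which Notch complexes pair on neighbouring RBPJ sites.

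The libraries held from 19192389 to 23064000 counts each. NDD replicate 2 stood apart from the rest: over all tested genes its Spearman correlation with the other 4 libraries was from 0.939 to 0.966, against 0.973 to 0.987 among those 4. Its proliferation markers summed to 817 CPM (counts scaled to a common library total), against 1993 in NDD replicate 1 and 1911 to 2233 in WT. The epithelial markers summed to between 12682 and 14420 CPM in the 5 libraries, and all 10 of them were detected. The sums for other cell types were at most 25.6 CPM. For fibroblasts they were 9.57 and 25.6 in NDD and 4.42 to 7.82 in WT, most of it Pdgfrb, while Lum and Pdpn were at 0 counts throughout. For immune cells they were 2.46 and 4.11 in NDD and 4.90 to 8.76 in WT. For endothelium they were 1.88 and 7.28 in NDD and 2.24 to 2.79 in WT, with Kdr and Emcn at 0. Values below are given for each library where a result rests on them. In bulk RNA, fewer cells of a type and less RNA per cell cannot be told apart.

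Of the ligands, 4 are neighbours. In mm10, with genes placed by the GENCODE M21 annotation, Epgn (chr5:91027464-91035215), Ereg (chr5:91074622-91093646), Areg (chr5:91139599-91148432) and Btc (chr5:91357261-91402994, on the minus strand) lie in that order within 375.5 kb of chromosome 5. The receptors Egfr (chr11:16752203-16918158) and Erbb2 (chr11:98412470-98437716) share chromosome 11, and Erbb3 lies at chr10:128567523-128589652. Tgfa is at chr6:86195223-86275719 and Errfi1 at chr4:150853919-150868892. The largest share of 31-base sequences that any member had in common with another gene was 2.71%, between Ereg and the antisense gene Gm19610. Erbb2 and Tgfa also share exon bases with antisense genes, Mien1 and Gm43917, and whether the counting used strand is not given in the sources used here.

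The promoters of 7 of the 10 members were matched by symbol in the RefSeq table (GRCm38.p6, the mm10 assembly). The 250 bases before the start are shown for Areg, the member with the highest abundance, for its neighbour Btc, and for the downstream of the 2 start sites listed for Errfi1, because Areg and Errfi1 were the members with a match. Capitals mark TGGGAA, the core of the RBPJ site, or TGACGTCA, the cyclic AMP response element, each searched on both strands together with the AP-1 site TGANTCA.
Areg (chr5:91139349-91139598, plus strand): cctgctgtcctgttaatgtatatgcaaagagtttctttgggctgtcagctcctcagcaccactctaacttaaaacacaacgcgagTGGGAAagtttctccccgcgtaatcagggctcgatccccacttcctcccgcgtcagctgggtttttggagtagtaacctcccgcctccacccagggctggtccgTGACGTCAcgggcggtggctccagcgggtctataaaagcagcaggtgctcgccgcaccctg
Btc (chr5:91402995-91403244, minus strand): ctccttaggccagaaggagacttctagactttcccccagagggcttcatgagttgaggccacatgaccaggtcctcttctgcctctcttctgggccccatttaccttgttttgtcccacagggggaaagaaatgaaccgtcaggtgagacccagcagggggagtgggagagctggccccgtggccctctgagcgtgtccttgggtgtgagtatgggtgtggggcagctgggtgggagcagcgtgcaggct
Errfi1 (chr4:150854820-150855069, plus strand): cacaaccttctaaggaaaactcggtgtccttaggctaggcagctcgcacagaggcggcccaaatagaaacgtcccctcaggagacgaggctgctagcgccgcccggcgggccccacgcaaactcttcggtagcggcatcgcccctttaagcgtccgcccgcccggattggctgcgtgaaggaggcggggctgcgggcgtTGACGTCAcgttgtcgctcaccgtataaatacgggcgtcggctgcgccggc
Areg had 1 RBPJ core, beginning 165 bases before its start, and 1 cyclic AMP response element, beginning 61 bases before it. Errfi1 had 1 cyclic AMP response element, 51 bases before the start shown. Among 32817 promoter windows of the same length, 21.6% held TGGGAA, 1.5% held TGACGTCA and 6.8% held TGANTCA, which none of the members' windows held. A match describes these letters and does not show that a factor binds there. TGGGAA was searched as a single core and was found in 1 of the 7 members. Neighbouring pairs of RBPJ sites, which the NDD alleles concern, were not searched for.

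Abundances, which can be compared between genes, are given in TPM (a transcript abundance that takes transcript length and library size into account). Areg was the most abundant member in every library, at 176 and 161 TPM in NDD replicates 1 and 2 and at 97.3, 150 and 100.01 TPM in WT replicates 1, 2 and 3. Its mean over the 5 libraries, 136.9 TPM, was at or above that of 91.7% of the tested genes. Erbb2 was next (mean 66.1 TPM) and stood above Errfi1 (49.9 TPM) in all 5 libraries. Errfi1 was above Hbegf (45.2 TPM) in 4 of 5 libraries, and Hbegf was above Erbb3 (44.2 TPM) in 2 of 5, so these 3 were not separated beyond their spread. Erbb3 exceeded Egfr (20.7 TPM) in all 5, and Egfr exceeded Tgfa (19.3 TPM) in 3 of 5. Btc (8.33 TPM) was below Tgfa in all 5 and above Ereg (5.38 TPM) in 4 of 5. Epgn, the ligand called epigen, had 1 count in each NDD library and 0, 1 and 2 counts in WT, which is within the 3 counts that a count of 0 allows. The neighbours on chromosome 5 thus ran from under 0.1 TPM (Epgn) to 176 TPM (Areg).

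**Figure D1:**
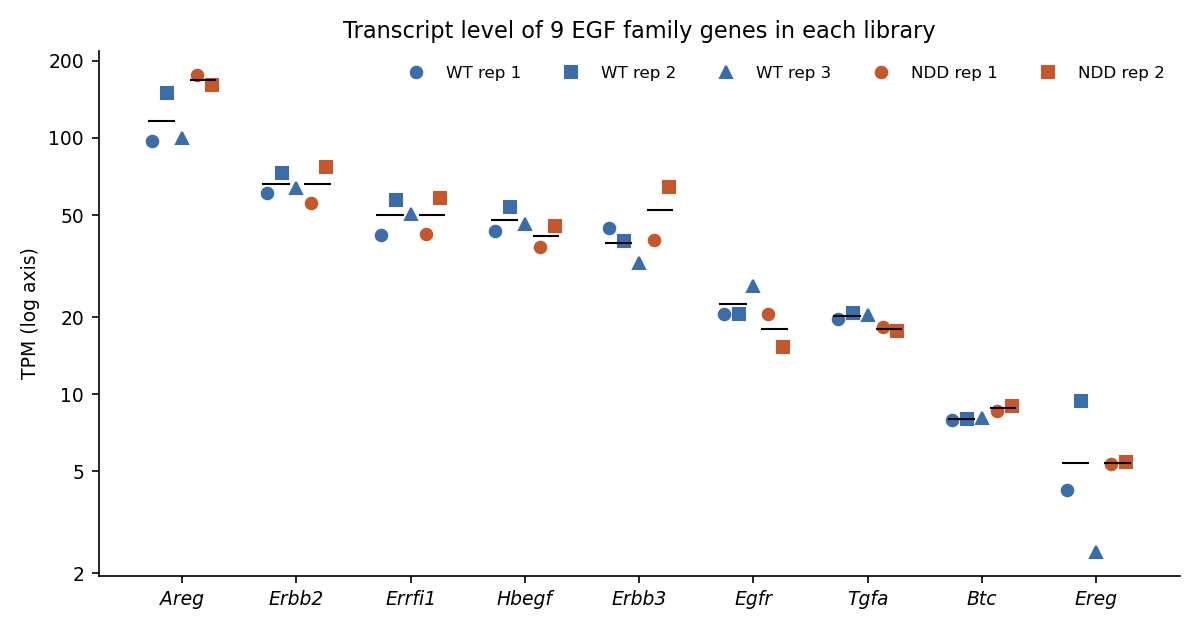
Abundance of 9 genes (all but Epgn) in TPM on a log axis, ordered by mean level. Each point is 1 library (circles, squares and triangles are replicates 1, 2 and 3; blue is WT, orange NDD) and black lines are group means; Areg is highest in every library, at 97.3 to 176 TPM, and the NDD points lie above the WT points for Areg and Btc and below them for Tgfa.

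NDD and WT were then compared gene by gene in the fit over all 13501 genes. No member among the 9 tested passed an adjusted p of 0.05 (edgeR, quasi-likelihood), where 0.0889% of all tested genes did. The smallest adjusted p was that of Areg, 0.441. At an unadjusted p under 0.05 there was 1 member, Areg, which is 1 of 9 where 11.2% of all tested genes passed. That count rested on single libraries: it was 0 without NDD replicate 2, WT replicate 1 or WT replicate 3, where 7.34%, 9.09% and 5.14% of all tested genes passed, and 1 (Areg) without WT replicate 2, where 7.48% did. With NDD replicate 1 left out it was 2, Egfr and Erbb3 but not Areg, where 30.1% of all tested genes passed. The CPM of the groups did not overlap for 3 of 9 members (Areg and Btc higher in NDD, Tgfa lower), against 32.0% of all tested genes, so both shares were near the background. The median log2 fold change of the 9 was 0.01, against -0.005 over all tested genes. Two-sided exact permutation gave a p of 0.2 for Areg, Tgfa and Btc and from 0.4 to 1.0 for the other 6; the smallest p the design allows is 0.2.

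**Figure D2:**
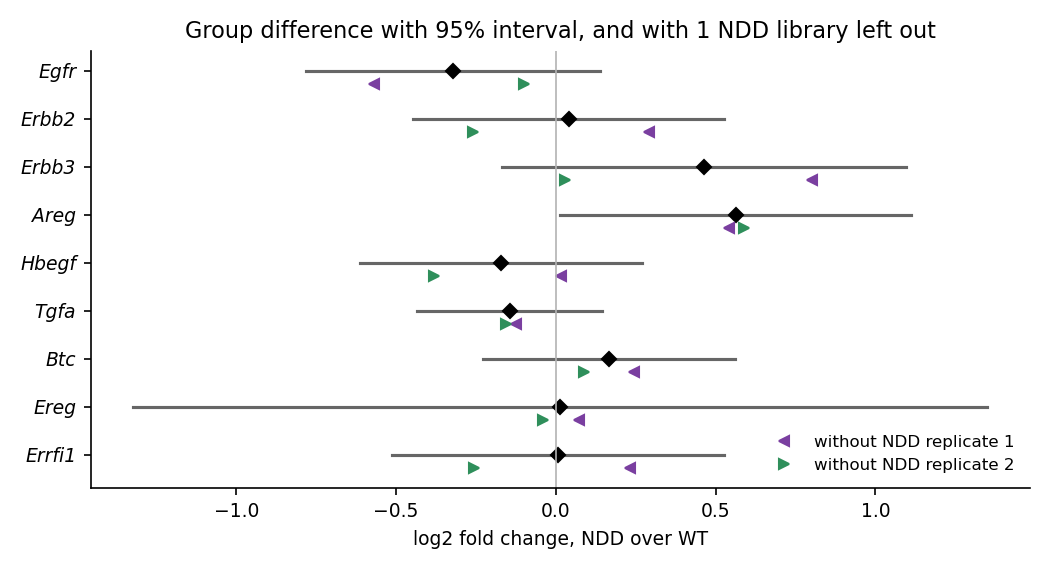
Log2 fold change of NDD over WT for the 9 tested genes (diamonds, 5 libraries) with unadjusted 95% intervals from edgeR. Triangles give the value without NDD replicate 1 (purple) or without NDD replicate 2 (green); those of Areg lie together, at 0.54 and 0.59, and those of Erbb3 lie apart, at 0.80 and 0.03.

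Areg encodes amphiregulin, a ligand of EGFR. It was at 108 and 107 CPM in the NDD libraries and at 60.6, 96.2 and 61.5 CPM in WT replicates 1, 2 and 3. Both NDD libraries lay above every WT library, and the 2 were close to each other, while WT replicate 2 was nearer to them than to the other WT libraries. The means were 107.5 ± 1.30 CPM (SD, n = 2) and 72.8 ± 20.3 CPM (SD, n = 3), which gave a log2 fold change of 0.56 (SE 0.23, unadjusted 95% interval 0.01 to 1.11, adjusted p 0.441 by edgeR). That is 1.48-fold, with an interval from 1.01-fold to 2.16-fold. The fits that left out a library gave 0.45 without WT replicate 1 or WT replicate 3, 0.54 and 0.59 when NDD replicate 1 or 2 was left out, and 0.83 without WT replicate 2. Areg's unadjusted p by edgeR was between 0.0997 and 0.133 in 4 of those 5 fits, and 0.00236 without WT replicate 2. The surface colonocyte markers, which include Car1, Slc26a3 and Aqp8, were also higher in NDD: they summed to 6944 and 6167 CPM in NDD and to 5377, 4846 and 4166 CPM in WT. Most of that sum was Car1 and Ceacam1, in which the groups overlapped. In the other 8 of the 10 markers both NDD libraries lay above WT, and the median log2 fold change of the 10 was 1.65. None passed an adjusted p of 0.05 (the smallest was 0.231 by edgeR), and 7 of 10 had an unadjusted p under 0.05. Over all tested genes and in either direction, 11.2% had an unadjusted p under 0.05 and 32.0% had groups that did not overlap. The part of these markers in the level of Areg was not tested.

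As a share of the summed ligand abundance, Areg made up 71.7% and 67.5% in NDD replicates 1 and 2 and 56.4%, 62.0% and 56.4% in WT replicates 1, 2 and 3. The groups did not overlap in this share (69.6 ± 2.95% in NDD, SD, n = 2; 58.3 ± 3.18% in WT, SD, n = 3). Hbegf took the next largest share, 15.2% and 19.0% in NDD and 22.3% to 26.1% in WT, and Tgfa 7.46% and 7.38% in NDD and 8.53% to 11.5% in WT. These are parts of the same sum, so a higher share of Areg lowers the others, and they are not a separate result. In its own level Hbegf overlapped between the groups. The 6 ligands together were at 246 and 238 TPM in NDD and at 172, 242 and 177 TPM in WT, so the sums of the groups overlapped through WT replicate 2.

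**Figure D3:**
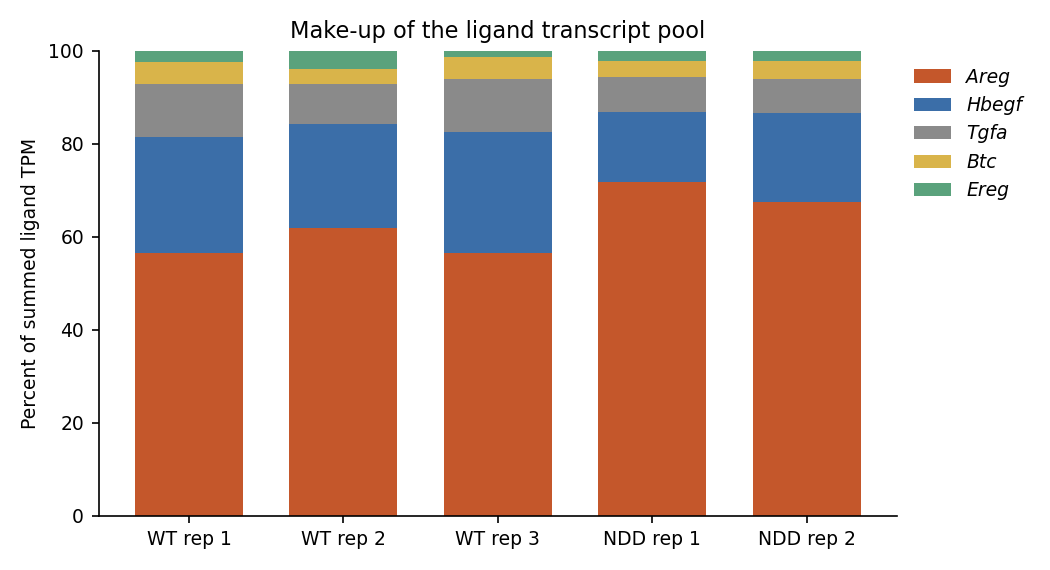
Make-up of the ligand transcript pool: each bar is 1 library, and colours give each ligand's percent of the summed TPM of Areg, Hbegf, Tgfa, Btc, Ereg and Epgn (Epgn, at most 0.0508%, is not drawn). Areg fills 67.5% and 71.7% of the NDD bars and 56.4% to 62.0% of the WT bars.

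Hbegf encodes a heparin-binding ligand of EGFR and ERBB4. It was at 49.7 and 66.4 CPM in NDD and at 59.7, 74.7 and 61.5 CPM in WT. NDD replicate 1 was the lowest library and WT replicate 2 the highest, and the groups overlapped (log2 fold change -0.17, SE 0.18, adjusted p 0.665 by edgeR). Leaving out NDD replicate 1 gave 0.02, and leaving out NDD replicate 2 gave -0.38. Tgfa, transforming growth factor alpha, was at 48.2 and 50.01 CPM in NDD and at 52.7, 56.7 and 53.5 CPM in WT. Both NDD libraries lay below the WT libraries, by a small margin (log2 fold change -0.14, SE 0.12, adjusted p 0.586 by edgeR). The interval of Tgfa, 0.740-fold to 1.11-fold, was the narrowest of the 9.

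Btc, betacellulin, is a ligand of EGFR and ERBB4. It was at 14.0 and 15.8 CPM in NDD and at 13.1, 13.6 and 13.1 CPM in WT, with both NDD libraries above WT (log2 fold change 0.17, SE 0.16, adjusted p 0.640 by edgeR). Leaving out NDD replicate 2 gave 0.09. The 3 WT libraries were nearly alike: the SD of log2 CPM between them, 0.03, was at or above that of 3.27% of the tested genes. For Tgfa that SD was 0.05, at or above 9.08% of the tested genes.

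Ereg, epiregulin, was the least even of the tested members. Its levels were 12.8 and 14.0 CPM in NDD and 10.4, 23.6 and 5.83 CPM in WT. The NDD libraries were close together inside the WT range, whose ends were 4.04-fold apart. The SD of log2 CPM between WT libraries was 1.001, at or above that of 97.2% of the tested genes. The log2 fold change was 0.01 (SE 0.55, adjusted p 0.992 by edgeR) with an interval from 0.40-fold to 2.55-fold, so differences within those bounds could not be told from 0. It was 0.74 without WT replicate 2, -0.34 without WT replicate 3 and -0.13 without WT replicate 1, and 0.07 and -0.04 without NDD replicates 1 and 2.

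The receptors differed between the NDD libraries more than between the groups. Egfr was at 63.8 CPM in NDD replicate 1, inside the WT range of 61.8 to 79.3 CPM, and at 46.8 CPM in NDD replicate 2, the lowest of the 5 libraries. WT replicates 1, 2 and 3 were at 66.2, 61.8 and 79.3 CPM. The means were 55.3 ± 12.0 CPM (SD, n = 2) and 69.1 ± 9.11 CPM (SD, n = 3), for which the log2 fold change was -0.32 (SE 0.19, adjusted p 0.496 by edgeR). Leaving out NDD replicate 2 gave -0.10, and leaving out NDD replicate 1 gave -0.57.

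Erbb3 was placed the other way round. It was at 93.03 CPM in NDD replicate 1 and 161 CPM in NDD replicate 2, and at 104.9, 95.8 and 75.9 CPM in WT replicates 1, 2 and 3. NDD replicate 2 was far above all other libraries, and NDD replicate 1 lay inside the WT range. The means were 127 ± 48.3 CPM (SD, n = 2) and 92.2 ± 14.8 CPM (SD, n = 3), for which the log2 fold change was 0.46 (SE 0.26, adjusted p 0.484 by edgeR). Without NDD replicate 2 it was 0.03. Without NDD replicate 1, which leaves 1 NDD library that is assumed to vary like WT, it was 0.80 with an adjusted p of 0.0521. In that fit 8.62% of all genes were called.

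Erbb2 was at 162 and 242 CPM in NDD and at 182, 222 and 186 CPM in WT. The lowest and the highest library were both NDD, and the log2 fold change was 0.04 (SE 0.20, adjusted p 0.930 by edgeR), with values of -0.26 without NDD replicate 2 and 0.29 without NDD replicate 1. The ratio of Erbb3 to Egfr in TPM was 1.95 and 4.21 in NDD replicates 1 and 2 and 2.16, 1.93 and 1.23 in WT replicates 1, 2 and 3. It was thus highest in NDD replicate 2 and lowest in WT replicate 3, while the other 3 libraries were close together. NDD replicate 2 was also the library with the lowest proliferation sum. Of the 10 surface colonocyte markers, 7 were highest in NDD replicate 2 and 3 in NDD replicate 1, and 9 were lowest in WT replicate 3. Krt20, a keratin of differentiated surface cells, was at 60.02 and 130.5 CPM in NDD and at 35.05, 35.3 and 4.93 CPM in WT. Aqp8, a water channel, was at 61.6 and 178 CPM in NDD and at 45.8, 38.2 and 6.26 CPM in WT. These 2 markers, which no naming rule picked, were highest and lowest in the same libraries as the receptor ratio. The ratio was lower in NDD replicate 1 than in WT replicate 1, whereas both markers were higher in NDD replicate 1. Car1, Cdhr5 and Guca2a of the same list were highest in NDD replicate 1, and Ceacam1 was lowest in WT replicate 2. The part of either marker list in the receptor levels was not tested. Erbb4, the other receptor of the family, had a count of 0 everywhere, and the limit set by such a count is 0.156 CPM in the smallest library.

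**Figure D4:**
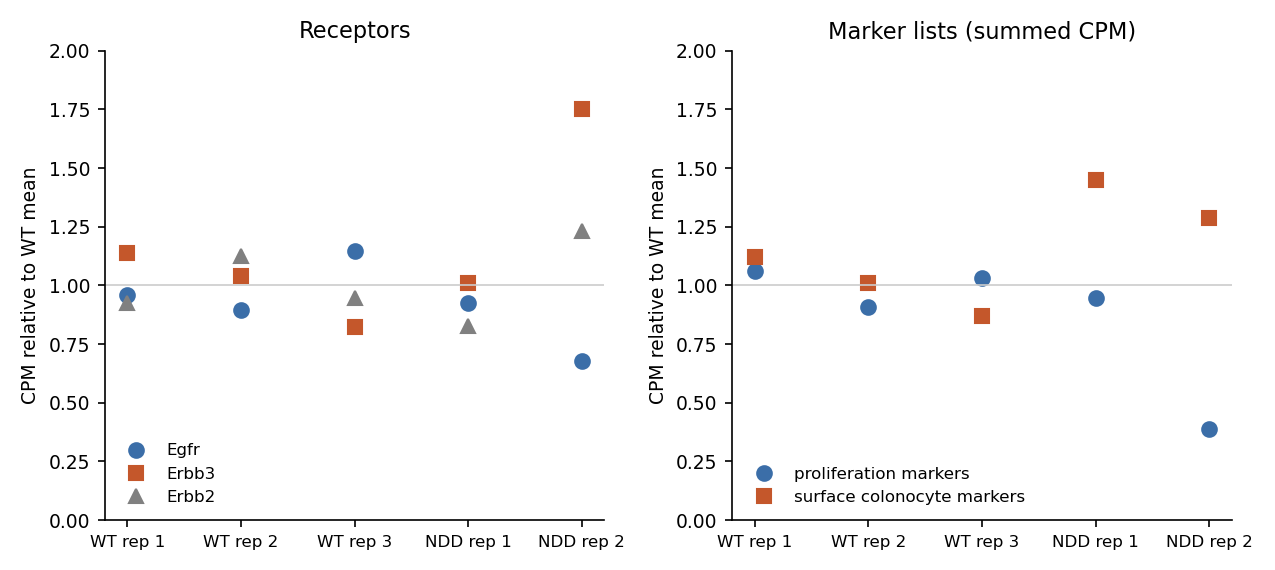
Left, CPM of Egfr, Erbb3 and Erbb2 in each library relative to the WT mean (linear axis); right, the summed CPM of the proliferation and surface colonocyte marker lists on the same scale. NDD replicate 2 has the lowest Egfr (46.8 CPM), the highest Erbb3 (161 CPM) and the lowest proliferation sum (817 CPM) of the 5, while NDD replicate 1 lies within the WT range for Egfr, Erbb3 and the proliferation sum.

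Errfi1, the feedback inhibitor, was at 71.5 and 102 CPM in NDD and at 71.6, 101 and 86.3 CPM in WT. The groups covered the same range, with means of 86.7 ± 21.4 CPM (SD, n = 2) and 86.2 ± 14.6 CPM (SD, n = 3). The log2 fold change was 0.01 (SE 0.21, adjusted p 0.989 by edgeR), and its interval ran from 0.701-fold to 1.44-fold. Leaving out NDD replicate 2 gave -0.26, and leaving out NDD replicate 1 gave 0.23.

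The genes nearest in pattern were sought for Areg and Egfr among 10388 genes with a mean log2 CPM of at least 2 and an established symbol, by the Euclidean distance of log2 CPM centred on each gene's mean over the 5 libraries. For Areg they were Dnajb4 (distance 0.18), Arntl (0.19) and Snrnp25 (0.21). For Egfr they were Ddx3x (0.04), Chordc1 (0.04) and Ptpn11 (0.04). These distances are a description, with no test.

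The rest of the pathway was described through 6 lists with 74 genes, of which 69 were tested. No gene of them passed an adjusted p of 0.05 in edgeR's fit; 7 of the 69 had an unadjusted p under 0.05, 5 higher and 2 lower in NDD, where 11.2% of all tested genes did. The groups did not overlap for 23 of the 69, against 32.0% of all tested genes, and the median log2 fold change was -0.01. Without NDD replicate 1, 5 of the genes were called (Akt1, Epha2, Fosl1 and Sh3kbp1 lower, Tob1 higher), in a fit that called 8.62% of all genes. Fosl1, Sh3kbp1 and Tob1 had the opposite sign without NDD replicate 2.

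Among the other ligands, Nrg1 and Nrg3 had 0 counts throughout, and Nrg2 had at most 1 count in any library. Egf itself was near the limit of detection. It was at 0.831 and 1.55 CPM in NDD and at 0.414, 0.308 and 0.600 CPM in WT (log2 fold change 1.41, SE 0.53, adjusted p 0.437 by edgeR). The log2 fold change was 0.92 without NDD replicate 2 and 0.23 in unfiltered limma on log2(TPM + 1), a scale that compresses low values. Nrg4, an ERBB4 ligand, was at 1.36 and 0.749 CPM in NDD and at 0.747 to 1.09 CPM in WT, with overlapping groups (log2 fold change 0.23, adjusted p 0.819 by edgeR; -0.26 without NDD replicate 1, 0.61 without NDD replicate 2, 0.39 without WT replicate 1 and 0.13 without WT replicate 2).

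Of the 9 genes for ligand shedding, 8 were tested, 3 higher and 5 lower in NDD with a median log2 fold change of -0.10, which ran from -0.14 to -0.04 over the fits that left out a library. Adam10, a sheddase of EGF and betacellulin precursors, was the most abundant (57.9 TPM) and was at 162 and 145 CPM in NDD and at 161 to 164 CPM in WT (log2 fold change -0.09, adjusted p 0.717 by edgeR; 0.00083 without NDD replicate 2 and -0.18 without NDD replicate 1). Adam17, the main sheddase of amphiregulin, was at 46.9 and 39.7 CPM in NDD and at 52.2, 49.2 and 57.8 CPM in WT, a difference of -0.29 on the log2 scale (SE 0.15, adjusted p 0.475 by edgeR). The rhomboid protease gene Rhbdl2 was at 24.6 and 21.4 CPM in NDD and at 16.6, 13.3 and 15.1 CPM in WT. Both NDD libraries lay above WT, and the log2 fold change was 0.62 (SE 0.17, adjusted p 0.365 by edgeR).

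The 16 genes for adaptors and the RAS-ERK cascade were all tested. Of these, 8 were higher and 8 lower, within log2 fold changes of -0.29 and 0.33, and none had an unadjusted p under 0.05. Mapk3, which encodes the kinase ERK1 and was the most abundant at 475 TPM, was at 447 and 614 CPM in NDD and at 424, 501 and 346 CPM in WT (log2 fold change 0.33, SE 0.21, adjusted p 0.516 by edgeR). The groups overlapped, and leaving out NDD replicate 2, NDD replicate 1 or WT replicate 3 gave 0.09, 0.53 or 0.20. The 10 genes of the PI3K-AKT arm had a median of -0.09 (0.01 if NDD replicate 2 was left out, -0.18 if NDD replicate 1 was), and none had an unadjusted p under 0.05. Akt1, their most abundant member, was at 371 and 242 CPM in NDD and at 389, 410 and 453 CPM in WT. Both NDD libraries lay below WT (log2 fold change -0.45, SE 0.20, adjusted p 0.465 by edgeR), and the value was -0.16 without NDD replicate 2, against -0.79 when NDD replicate 1 was left out.

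Among the 14 genes for receptor inhibitors and turnover, 7 were higher and 7 lower. The median, -0.0005, had no steady sign: it ran from -0.01 to 0.08 when single libraries were left out. Lrig3, of a family of transmembrane proteins that includes the EGFR inhibitor LRIG1, was at 85.9 and 82.9 CPM in NDD and at 63.2, 61.5 and 51.0 CPM in WT. The groups did not overlap and the NDD libraries were close together (log2 fold change 0.53, SE 0.14, adjusted p 0.351 by edgeR). Lrig1 itself was at 228 and 148 CPM in NDD and at 223, 213 and 207 CPM in WT (log2 fold change -0.19, adjusted p 0.654 by edgeR). NDD replicate 1 was the highest library and NDD replicate 2 the lowest, so the negative value rests on NDD replicate 2. Tob1, the most abundant of the list at 146 TPM, was at 95.7 and 201 CPM in NDD and at 94.3 to 126 CPM in WT. Its log2 fold change of 0.39 became -0.22 when NDD replicate 2 was left out, and 0.82 when NDD replicate 1 was.

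The 19 ERK feedback and target genes went both ways, 10 higher and 9 lower in NDD with a median of 0.03, which ran from -0.08 to 0.14 over the fits that left out a library. Dusp5, a nuclear ERK phosphatase, was at 9.84 and 10.9 CPM in NDD and at 4.76, 6.94 and 2.75 CPM in WT. Spry4, a cytoplasmic brake on RAS-ERK signalling, was at 7.69 and 11.8 CPM in NDD and at 5.38, 6.86 and 3.43 CPM in WT. In both genes the NDD libraries lay above WT, with log2 fold changes of 1.11 (SE 0.39, adjusted p 0.437 by edgeR) and 0.90 (SE 0.36, adjusted p 0.440 by edgeR). That of Spry4 was 0.57 without NDD replicate 2 and 0.46 in limma on log2(TPM + 1).

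Epha2, an ephrin receptor induced by ERK, and Ccnd1, cyclin D1, were placed the other way. Epha2 was at 224 and 162 CPM in NDD and at 286, 296 and 370.02 CPM in WT, with no overlap (log2 fold change -0.72, SE 0.20, adjusted p 0.369 by edgeR). Ccnd1 was at 493 and 359 CPM in NDD and at 599, 564 and 981 CPM in WT, so that WT replicate 3 was far above the rest (log2 fold change -0.75, SE 0.29, adjusted p 0.437 by edgeR). It was -0.45 without that library.

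**Figure D5:**
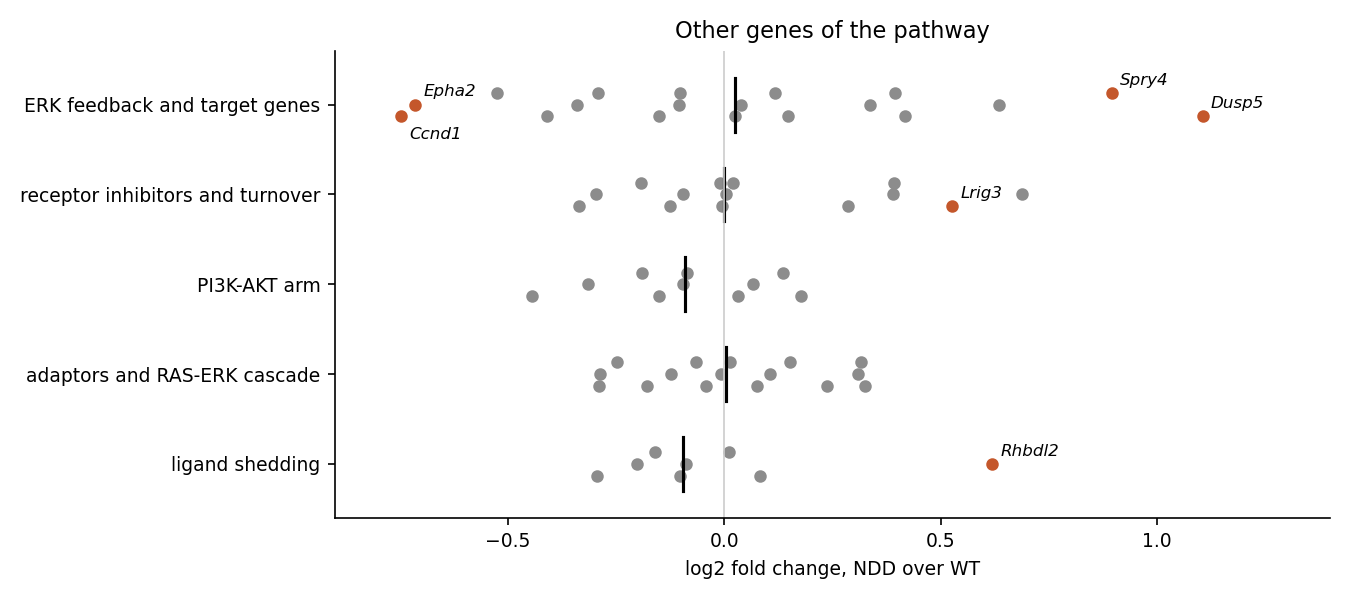
Log2 fold change of NDD over WT for the tested genes of 5 pathway lists (points; vertical offsets only separate them), with the list medians as black lines. Orange points have an unadjusted p under 0.05; they lie on both sides of 0 in the ERK list (Ccnd1 -0.75, Epha2 -0.72, Spry4 0.90, Dusp5 1.11), and all medians lie between -0.10 and 0.03.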

How the data were processed

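RNA from mouse colon spheroids (2 NDD and 3 WT libraries) was sequenced after stranded mRNA library preparation, per the labels' protocols. Bowtie2, RSEM and mm10 are named in the submitters' processing notes, without versions or roles. The authors deposited estimated counts per gene, rounded to whole numbers and not normalized, and TPM values scaled for transcript length. All value columns matched sample titles (0 unmatched). The members and lists were chosen with earlier results of these data known.

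Counts of all genes were fitted with edgeR 4.0.16 (R 4.3.3; filterByExpr, TMM factors, quasi-likelihood test, robust prior, prior count 0.125), with Benjamini-Hochberg adjustment over 13501 genes and a threshold of 0.05. CPM use TMM-scaled library sizes, except marker sums and the limit for a count of 0 (3 counts, counting error only), which use unscaled totals. Each SE is the absolute log2 fold change over the root of its F statistic. Single members were compared by exact permutation of log2 CPM (scipy 1.17.1). The pathway genes named are the most abundant of each list and up to 4 with an unadjusted p under 0.05 and no overlap; Adam17, Lrig1 and the genes called without NDD replicate 1 were added after their values were seen. On simulated counts with 200 genes changed by 2 on the log2 scale, 77.5% were recovered, with 7 false calls among 162. The members' log2 fold changes were smaller, from -0.32 to 0.56, and no simulated library was made to stand apart as NDD replicate 2 did. The simulation therefore does not show how often differences of the members' size would be found here. Alternatives were other factors, filters and prior count, DESeq2 1.42.0, limma-voom and limma on log2 TPM (limma 3.58.1), the replicate block, and leaving out each library.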

Additional observations from a re-analysis of the deposited data

How the results depend on the processing

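No member had an adjusted p under 0.05 in any of the 16 alternatives; the smallest was 0.0521 (Erbb3 without NDD replicate 1). All genes called, 12 here, were 12 with RLE and 14 with upper-quartile factors, 16 with limma on log2(TPM + 1) or log2(TPM + 0.1) and 9 on log2(TPM + 1) unfiltered. They were 58 with no filter, 4 with at least 10 counts in every library, 357 with DESeq2 and 24 with limma-voom, and the cause was not tested. Leaving out a library gave 0 to 1207 (0 without WT replicate 1, 3 without WT replicate 3, 5 without WT replicate 2, 12 without NDD replicate 2, 1207 without NDD replicate 1), and pathway genes called 0 to 5. Across those 5 fits Areg, Btc, Erbb3, Egfr and Tgfa kept their direction (Areg 0.45 to 0.83, Btc 0.09 to 0.25, Erbb3 0.03 to 0.80, Egfr -0.57 to -0.10, Tgfa -0.17 to -0.10 on the log2 scale). For Areg, Btc and Tgfa the groups did not overlap, so leaving out a library could hardly change the sign. The direction was lost for Erbb2 (-0.26 to 0.29), Ereg (-0.34 to 0.74), Hbegf (-0.38 to 0.017), Errfi1 (-0.26 to 0.23), Nrg4 (-0.26 to 0.61), Adam10 (-0.18 to 0.00083) and Tob1 (-0.22 to 0.82). Values near 0 also changed sign with Errfi1 in limma-voom (-0.0038), on log2(TPM + 1) with or without the filter (-0.00039) and on log2(TPM + 0.1) (-0.00051), and with Erbb2 on log2(TPM + 1) with or without the filter (-0.0043) and log2(TPM + 0.1) (-0.0046).

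The labels do not say that shared replicate numbers mark a litter or day, and the deviations of same-numbered libraries correlated at 0.01 (number 1) and 0.31 (number 2), so they were not treated as pairs. With the replicate block 33 genes were called, none of them a member, no member had an unadjusted p under 0.05 (6.98% of all tested genes did), Areg was at 0.49, Ereg at -0.23, Erbb2 at -0.018 and Ccnd1 at -0.47.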

Other observations

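The immediate-early genes Egr1 and Fos, which encode transcription factors induced within minutes of ERK activation, varied widely between libraries of the same genotype (chosen after their values were seen). Egr1 was at 136 and 424 CPM in NDD replicates 1 and 2 and at 430.2, 338 and 164 CPM in WT replicates 1, 2 and 3. Fos was at 67.9 and 246 CPM in NDD and at 190, 111 and 56.9 CPM in WT. Both were low in NDD replicate 1 and WT replicate 3 and the groups overlapped, while Dusp6, an ERK feedback phosphatase, stayed between 71.2 and 105 CPM. Dusp6 does not stand for the whole ERK list. Fosl1 was less even, at 18.9 and 2.43 CPM in NDD and at 11.7, 20.5 and 14.0 CPM in WT. Spred2 was more even, at 104 to 120 CPM over all libraries.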
